A study of Rattus norvegicus with 241 samples.

Results

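Luminal progenitors of the whole mammary gland were studied as 6318 of 103524 cells from unsorted glands of 9 SD rats. A cell was a member when it held at least 3 UMIs summed over the luminal keratins KRT8 and KRT18. UMIs are unique molecular identifiers, each standing for 1 captured RNA molecule. A member also held at least 2 UMIs over KIT, ELF5 and BTN1A1. At most 1 UMI was allowed over PTPRC, CITED1 and PRLR, which mark leukocytes and mature luminal cells. The rats were young virgin females of this outbred strain. They received TGFBRi (LY2157299, an oral inhibitor of the kinase of TGFβ receptor type I) by gavage at 75 mg/kg, 2 doses per day for 10 days, or vehicle alone, and glands were taken on day 0, when dosing stopped. The vehicle group held 3 rats, with 1231, 561 and 190 members (rats 1, 2 and 4), and the TGFBRi group 6 rats, with 560 to 1060 members each. The labels name no other agent, allele or tumor for these rats. The digested glands were not sorted, so that stromal cells and leukocytes were present beside the epithelium.

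The mammary duct is lined by luminal cells that rest on a layer of contractile basal cells. Among luminal cells, mature cells carry the receptors for estrogen and progesterone, whereas luminal progenitors lack them, express KIT and the transcription factor ELF5, and give rise to the milk-secreting alveolar cells under prolactin, STAT5 and the ligand RANKL. TGFβ is a secreted growth inhibitor of mammary epithelium. It signals through a type II and a type I receptor to SMAD proteins, which raise genes of the extracellular matrix and of the pathway's own feedback.

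The summed markers of the class did not set the members apart from mature luminal cells in every rat. The 9 luminal progenitor markers, which include the luminal keratins and genes of the rule, summed to 109 to 117 UMIs per 10000 with vehicle and 88.6 to 203 after TGFBRi in the members, against 80.7 to 114 and 56.6 to 99.8 in mature luminal cells. The sum was higher in mature cells in vehicle rat 4 and in TGFBRi rat 4. CSN3 (κ-casein) averaged 55.4 UMIs per 10000 with vehicle and 92.3 after TGFBRi in the members, against 3.19 and 1.27 in mature luminal cells of the same glands. The transcription factor EHF averaged 3.64 and 3.37 in the members and 0.854 and 0.816 in mature cells. ALDH1A3, a retinaldehyde dehydrogenase used to mark luminal progenitors, went the other way, at 4.00 and 0.451 in the members and 9.65 and 1.35 in mature cells. These profiles are a description, since the members were chosen on the same counts. Markers of other cells were low in the members. The 7 mature luminal markers summed to 0.560 to 1.54 UMIs per 10000 with vehicle and 0.235 to 0.6248 after TGFBRi, against 17.6 to 40.2 in mature cells. Basal markers summed to 1.20 to 3.98 in the members against 68.5 to 181 in basal cells, and B cell markers to 0.00605 to 0.105. Fibroblast markers summed to 5.21 to 19.4 with vehicle and 0.708 to 10.4 after TGFBRi, with overlap of the groups, and 0 of the 6 passed the edgeR test described below. Of the other marker lists, at most 1 gene each was lowered after TGFBRi, except for the 3 of 5 tested mature luminal markers. Some markers were raised. Of 5 vascular smooth muscle and pericyte markers 3 passed, 1 of them lowered, and of 7 basal markers 2 passed, 1 of them lowered, against 25.1% of all genes. The former summed to 0.323 to 0.672 with vehicle and 0.459 to 0.647 after TGFBRi.

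At the edges of the rule, 144 members had exactly 3 keratin UMIs and 145 cells were left out with 2. There were 1170 members with exactly 2 UMIs over KIT, ELF5 and BTN1A1, and 1885 cells were left out with 1. CSN3 was at 48.9 UMIs per 10000 in the former and 31.4 in the latter, as medians over the rats. The members of a rat summed to between 1652048 (vehicle rat 4) and 13708027 UMIs (vehicle rat 1), with a median of 6990.5 to 12707 UMIs per cell. Vehicle rat 4 stood apart, with the fewest members and the fewest B cells, and 11.8% of members shared their cell barcode with a cell of another library. The genes of the rule itself give values and no test. ELF5 lay at 1.56 to 2.07 UMIs per 10000 with vehicle and 3.00 to 4.59 after TGFBRi, BTN1A1 at 1.15 to 1.34 and 1.81 to 3.36, and KIT at 0.615 to 1.46 and 1.31 to 3.32. KRT8 lay at 23.3 to 31.1 with vehicle and 17.7 to 23.4 after TGFBRi.

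Whether TGFBRi changed the share of luminal progenitors was asked over rats. Members were 7.50, 4.45 and 1.61% of all cells in the vehicle rats and 5.68 to 9.70% (median 6.46%) in the TGFBRi rats. The groups overlapped, since vehicle rat 1 lay within the TGFBRi range. The means were 4.52 ± 2.94% (SD, n = 3) and 7.01 ± 1.597% (SD, n = 6), a difference of 2.49 percentage points (p = 0.131, exact permutation test, two-sided). It was 1.03 points without vehicle rat 4 and 3.98 points without vehicle rat 1 (p = 0.0357, exact permutation). The smallest p that 84 splits of 9 rats allow is 0.0119. When every cell was thinned to 3000 UMIs and shallower cells were left out (3029 to 7491 per rat), the shares were 1.21 to 5.99% and 6.50 to 11.9%, the groups no longer overlapped, and the difference was 4.70 points with that smallest p. Among classed luminal cells (members plus mature luminal cells) the members were 62.999, 63.2 and 29.01% with vehicle and 55.2 to 76.3% (median 67.5%) after TGFBRi, a difference of 14.8 points (p = 0.131, exact permutation test, two-sided). This difference rested on vehicle rat 4 and was 3.48 points without it. Shares of a dissociated gland also move with the yield of every other cell type. They move as well with the level of the rule's own genes, and ELF5 and BTN1A1 lay higher in members of TGFBRi rats. Cells 1 UMI short over KIT, ELF5 and BTN1A1 numbered 535, 279 and 112 in the vehicle rats, beside 1231, 561 and 190 members. In the TGFBRi rats they numbered 116 to 253, beside 560 to 1060 members. How far this moved the shares, thinned or not, was not tested.

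**Figure D1:**
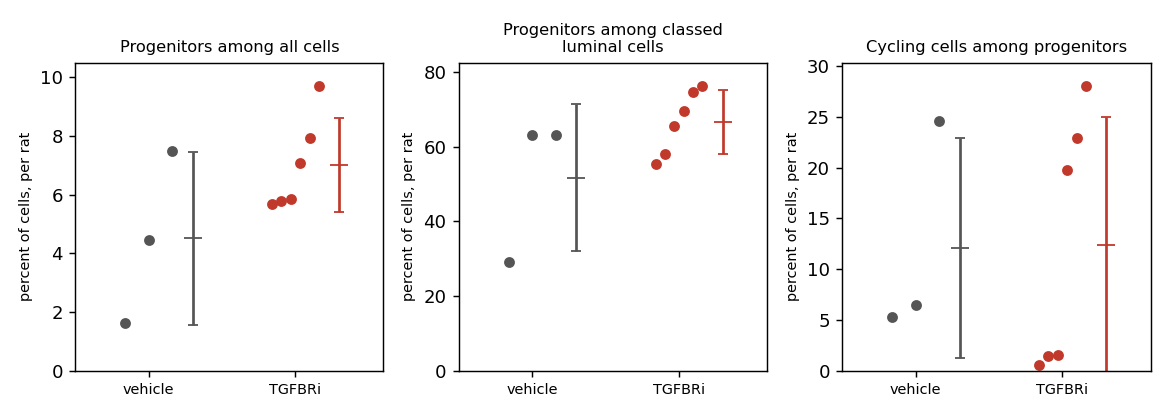
Luminal progenitors as a percent of all cells and of classed luminal cells, and cycling cells as a percent of luminal progenitors, in vehicle and TGFBRi rats (points, rats; bars, mean ± SD, cut at 0). Vehicle rat 4 is the lowest point of both share panels, and the cycling share spans 0.588 to 28.1% within the TGFBRi group.

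TGFBRi changed expression in the members widely. UMIs were summed per rat and compared by edgeR's quasi-likelihood test over 14162 genes, with p-values adjusted by Benjamini-Hochberg and a threshold of 0.1, which holds for every call below. In all, 3555 genes (25.1% of those tested) passed, 1824 raised (12.9%) and 1731 lowered (12.2%), and the median log2 fold change of all genes was 0.06. Leaving out vehicle rat 1, which gave the most members, left 1665 genes. Of 9696 genes with a mean of at least 20 UMIs per rat, 26.6% showed no overlap between the vehicle and TGFBRi rats. The genes described first are the 12 per direction with the largest fold change among genes that passed, had that mean and did not overlap between groups. In the following, levels are UMIs per 10000 UMIs of the members, fold changes are log2 ± SE, and adjusted p-values come from edgeR with Benjamini-Hochberg adjustment.

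The 12 most raised genes held TGFB3 and TNFRSF11A. TGFB3 encodes the ligand TGFβ3. Its level was 0.185, 0.200 and 0.230 in the vehicle rats and 0.843 to 1.29 (median 0.977) in the TGFBRi rats. Every TGFBRi rat lay more than 3-fold above every vehicle rat, and the log2 fold change was 2.28 ± 0.21 (adjusted p = 0.000193). TNFRSF11A encodes RANK, the receptor through which RANKL from mature luminal cells acts on progenitors. Its level was 0.155, 0.106 and 0.115 with vehicle and 0.379 to 0.797 (median 0.702) after TGFBRi, a log2 fold change of 2.37 ± 0.29 (adjusted p = 0.000856). DBP, a transcription factor under the circadian clock, had the largest rise. It was at 0.0292, 0.0441 and 0 with vehicle and at 0.273 to 0.789 (median 0.528) after TGFBRi, which is 4.08 ± 0.54 on the log2 scale (adjusted p = 0.00173). The others were FAM13A (3.89), the splicing factor RBM20 (3.44), COQ8A of coenzyme Q synthesis (2.59), the tight junction protein CLDN8 (2.39), RPUSD3 (2.37), the retinaldehyde reductase DHRS3 (2.31), the secreted protein FAM19A5 (2.27), the uncharacterised LOC102551095 (2.66) and RT1-T24-3 (2.62), whose reads may be shared with other class I MHC genes.

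The 12 most lowered genes held chemokines, secreted proteins and peptides. CXCL3, a neutrophil-attracting chemokine, was the most abundant of them. It was at 30.8, 37.0 and 31.4 in the vehicle rats and at 1.42 to 4.18 (median 2.51) in the TGFBRi rats, which is −3.68 ± 0.30 on the log2 scale (adjusted p = 0.000138). The related CXCL6 was at 0.532, 1.30 and 1.62 with vehicle and at 0.0252 to 0.253 (median 0.0643) after TGFBRi, a change of −3.66 ± 0.66 (adjusted p = 0.00810). The groups were apart in both, and reads may be split among these similar chemokine genes. IL1RL1, the receptor for IL-33, was at 0.711, 1.49 and 0.381 with vehicle and at 0.00541 to 0.0840 after TGFBRi (−4.79 ± 0.68, adjusted p = 0.00337). CALCB, a peptide of the calcitonin gene family, was at 0.185, 0.493 and 0.266 and then at 0 to 0.0252 (−4.69 ± 0.55, adjusted p = 0.00106). CRISP3, a secreted cysteine-rich protein, was at 0.157, 0.211 and 0.145 and then at 0 to 0.0163 (−4.67 ± 0.59, adjusted p = 0.00146). All 3 genes were lower in every TGFBRi rat than in any vehicle rat. The others were the cytokine receptor CNTFR (−4.84), the collagenase MMP13 (−3.86), LOC100912068 (−3.68), the LIM domain protein FHL2 (−3.51), the granzyme inhibitor SERPINB9 (−3.39), the lipocalin APOD (−4.26) and the aldo-keto reductase AKR1B8 (−5.92).

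Levels in B cells of the same glands, which should lack epithelial RNA, served as the background. These B cells were limited to cells without a keratin UMI, so that the background may read too low for epithelial genes. AKR1B8 was at 0.557, 0.730 and 0.720 in the members of vehicle rats and at 2.10, 1.43 and 0.180 in their B cells. The B cells thus lay above the members in the first 2 rats, and how much of the members' level was background was not tested. The level of AKR1B8 in B cells also fell after TGFBRi (−5.20 ± 0.77, adjusted p = 0.00960). Nor was it alone in this. Of the 12 most lowered genes 10 were tested in B cells, where all 10 had the same sign and 5 passed, against 6.19% of all genes lowered there. Of the 12 most raised genes 10 were tested there, 6 had the same sign and 2 passed, against 12.6% of all genes. IL1RL1 was at 0.466, 0.514 and 0.129 in B cells of vehicle rats, below the members of each rat but close to them in vehicle rat 1. CXCL3 was at 0.378, 1.76 and 2.83 in those B cells, well below the members, and CALCB and CRISP3 at 0 to 0.00457. APOD was also higher in B cells than in the members on average, at 0.231 against 0.113. The part of free RNA in the fall of these genes was not tested.

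**Figure D2:**
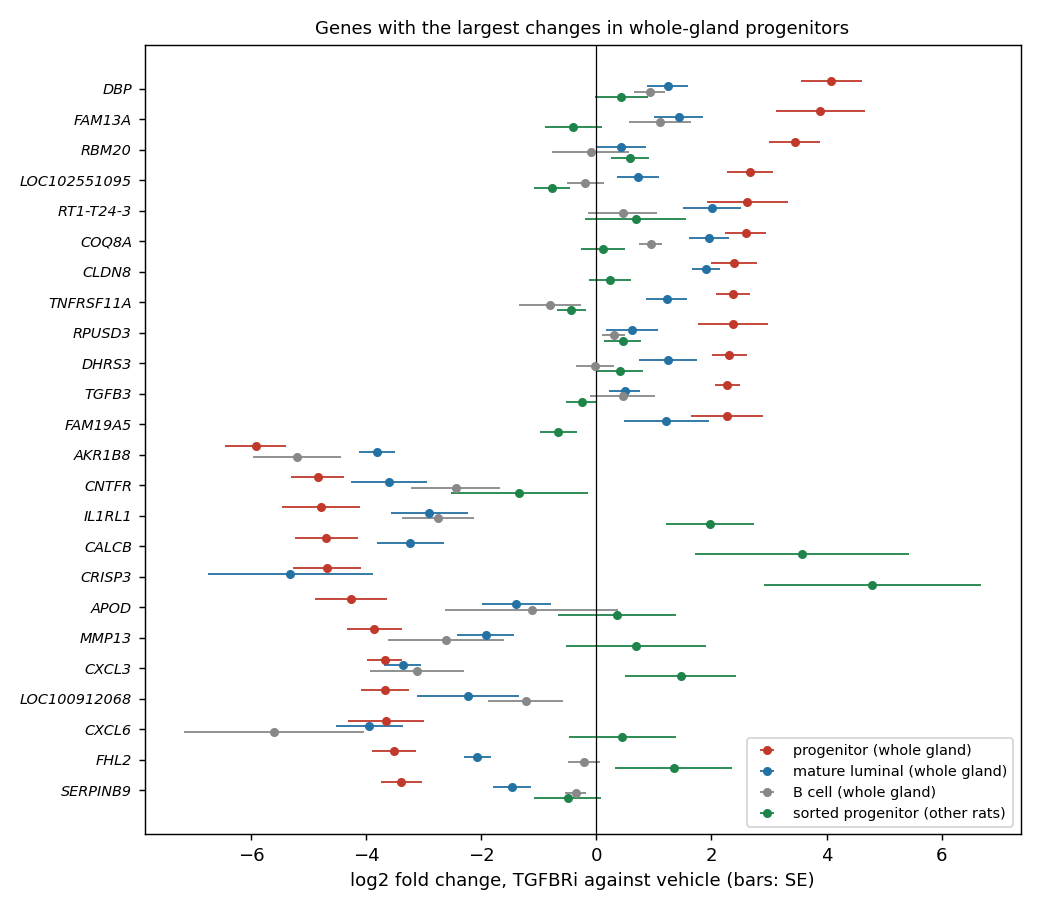
Log2 fold change (TGFBRi over vehicle) ± SE of the 12 most raised and 12 most lowered genes of luminal progenitors, in luminal progenitors, mature luminal cells and B cells of whole glands and in sorted luminal progenitors. TGFB3 sits at 2.28 in luminal progenitors and 0.49 in mature luminal cells, whereas CXCL3 sits at −3.68 and −3.37.

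Promoter sequences are shown for 4 of these genes, as examples of raised (TGFB3, DBP) and lowered (CXCL6, IL1RL1) members with an entry in the RefSeq promoter table (assembly GRCr8, 250 bases before to 50 after the start). Of the 24 genes, 15 matched an entry. The motifs searched on both strands were CAGAC and GTCTAGAC, bound by SMAD proteins, and TTCNNNGAA, bound by STAT5. Capitals mark a match.
TGFB3: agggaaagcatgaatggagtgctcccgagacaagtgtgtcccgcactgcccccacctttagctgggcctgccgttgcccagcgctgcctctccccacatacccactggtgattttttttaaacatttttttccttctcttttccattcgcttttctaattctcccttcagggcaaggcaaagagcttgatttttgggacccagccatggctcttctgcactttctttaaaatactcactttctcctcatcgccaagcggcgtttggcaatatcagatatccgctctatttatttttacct
DBP: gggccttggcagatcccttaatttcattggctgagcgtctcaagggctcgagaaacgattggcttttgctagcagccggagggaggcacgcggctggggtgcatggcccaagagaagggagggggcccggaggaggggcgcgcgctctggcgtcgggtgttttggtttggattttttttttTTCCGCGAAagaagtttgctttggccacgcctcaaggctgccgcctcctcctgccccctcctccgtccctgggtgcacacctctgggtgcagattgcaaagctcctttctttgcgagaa
CXCL6: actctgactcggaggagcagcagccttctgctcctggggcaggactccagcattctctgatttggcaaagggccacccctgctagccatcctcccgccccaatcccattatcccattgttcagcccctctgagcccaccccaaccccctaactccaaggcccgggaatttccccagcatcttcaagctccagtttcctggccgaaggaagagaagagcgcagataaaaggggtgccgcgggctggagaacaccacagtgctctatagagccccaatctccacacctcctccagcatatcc
IL1RL1: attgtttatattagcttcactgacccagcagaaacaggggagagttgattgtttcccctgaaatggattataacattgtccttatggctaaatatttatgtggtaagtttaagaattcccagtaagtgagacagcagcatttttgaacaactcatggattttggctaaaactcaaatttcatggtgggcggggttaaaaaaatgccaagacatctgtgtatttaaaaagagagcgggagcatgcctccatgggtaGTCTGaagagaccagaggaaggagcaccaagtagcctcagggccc
The windows lie at chr6:111456897-111457196 on the minus strand (TGFB3), chr1:105312006-105312305 on the plus strand (DBP), chr14:17596368-17596667 on the minus strand (CXCL6) and chr9:50203388-50203687 on the plus strand (IL1RL1). CAGAC was found in 5 of the 15 promoters, 2 of 8 raised and 3 of 7 lowered genes, against 50.1% of all 33469 promoters in the table. TTCNNNGAA was found in 2 of the 15 (DBP and RPUSD3) against 8.87% of all promoters, and GTCTAGAC in 0 of the 15 against 0.197%.

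Genes of the pathway that TGFBRi blocks were read from lists of targets, feedback genes and components. Of 19 measured TGFβ targets 9 were lowered and 0 raised, with a median log2 fold change of −0.98, against 12.2% of all genes lowered. THBS1, a matrix glycoprotein that activates latent TGFβ, was at 10.5, 9.27 and 13.1 with vehicle and at 1.82 to 6.03 (median 3.23) after TGFBRi (−1.71 ± 0.35, adjusted p = 0.00949). TNFRSF12A, the receptor for TWEAK, was at 19.4, 14.3 and 18.4 and then at 6.28 to 10.4 (median 9.10), a change of −1.02 ± 0.20 (adjusted p = 0.00696). The groups did not overlap for either gene. The matricellular genes CCN2 (−1.94) and CCN1 (−1.19), the integrin ITGB6 (−2.31) and the latency protein LTBP2 (−2.07) were also lowered, as were IL11 (−1.33) and COL4A1 (−0.86). In B cells 7 of 19 of these targets were lowered (against 6.19% of all genes tested there, with 6.41% raised), with a median of −1.16, although THBS1 was at only 0.142 to 0.192 there with vehicle.

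Of 9 feedback genes 1 was lowered, a share near the 12.2% of all genes. It was the ubiquitin ligase SMURF2 (−0.62 ± 0.22, adjusted p = 0.0712), whose call was lost in 7 of 18 alternatives, and which was at −0.26 without vehicle rat 1. The inhibitory SMAD7 was at 0.135, 0.0870 and 0.182 with vehicle and at 0.102 to 0.226 after TGFBRi, and its change of 0.28 ± 0.31 did not pass (adjusted p = 0.578). Among 17 pathway components, the ligands TGFB3 and TGFB2 (0.62 ± 0.15, adjusted p = 0.0168) and the coreceptor TGFBR3 (1.87 ± 0.26, adjusted p = 0.00167) were raised. The ligand TGFB1 (−0.74), the receptor-activated SMAD2 (−0.52) and LTBP4 (−1.09) were lowered. These 3 and 3 of 17 stand against 12.9 and 12.2% of all genes, and without vehicle rat 1 the counts were 3 raised and 0 lowered. TGFB1 overlapped between the groups, at 0.180, 0.0958 and 0.115 with vehicle and 0.0702 to 0.1002 after TGFBRi. The receptors TGFBR1 (−0.39, adjusted p = 0.330) and TGFBR2 (−0.42, adjusted p = 0.237) did not pass. Of 14 ID and BMP genes, the differentiation inhibitor ID2 was raised (0.89 ± 0.27, adjusted p = 0.0404), and ID3 (−1.17), BMP2 (−2.25) and its antagonist NOG (−3.57) were lowered. These calls make up 28.6% of the list, near the 25.1% of all genes that passed, and are not a result about the list. NOG did not pass under a stricter rule for the members (−0.64, adjusted p = 0.750).

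Among regulators of the alveolar fate both STAT5 genes were raised. Of 21 alveolar and progenitor regulators 5 were raised and 3 lowered (over all genes 12.9 and 12.2%), with a median log2 fold change of 0.10. Without vehicle rat 1 or 2, 3 were raised. STAT5A, which carries the prolactin signal to milk genes, was at 0.140, 0.205 and 0.169 with vehicle and at 0.408 to 0.750 (median 0.521) after TGFBRi, without overlap. Its log2 fold change was 1.66 ± 0.24 (adjusted p = 0.00177). STAT5B was at 0.119, 0.158 and 0.0968 and then at 0.247 to 0.366 (median 0.298), a change of 1.19 ± 0.19 (adjusted p = 0.00311). The transcription factor NFIB (1.07 ± 0.19, adjusted p = 0.00415), the lipopolysaccharide coreceptor CD14 (1.00 ± 0.35, adjusted p = 0.0699) and ID2 were the others raised. The lowered ones were ALDH1A3 (−3.15 ± 0.36, adjusted p = 0.000850), the transcription factor RUNX1 (−0.95) and the complement regulator CD55 (−1.81). ALDH1A3 was at 2.06, 3.72 and 6.21 with vehicle and at 0.228 to 0.698 after TGFBRi. Of the 2 measured genes of the RANK list TNFRSF11A was raised, and the decoy receptor TNFRSF11B did not pass (−1.12, adjusted p = 0.207).

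Milk genes were read as lists of fat synthesis and of milk proteins. Of 20 milk fat genes 9 were raised and 0 lowered, with a median of 0.92, against 12.9% of all genes raised. FASN, the fatty acid synthase, was at 0.667, 0.749 and 1.02 in the vehicle rats and at 1.76 to 5.50 (median 3.02) in the TGFBRi rats (2.09 ± 0.36, adjusted p = 0.00447). XDH, needed for the coating of milk fat droplets, was at 0.862, 1.49 and 0.732 and then at 2.09 to 7.24 (median 3.99), a change of 2.09 ± 0.43 (adjusted p = 0.0106). OLAH, the thioesterase that releases medium-chain fatty acids, was at 10.4, 8.04 and 6.51 and then at 12.5 to 21.4 (0.96 ± 0.24, adjusted p = 0.0182). The groups were apart for all 3. ACACA (1.66), ACLY (0.88), GPAM (1.74), CIDEA (1.74), THRSP (1.53) and ACSS2 (1.53), which act in fatty acid or triglyceride synthesis or in lipid droplets, were also raised. The count was 6 without vehicle rat 1 and 6 without vehicle rat 4.

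Of 11 milk protein genes 1 was raised and 1 lowered, with a median of 0.94 and 10 genes above 0. Against 12.9 and 12.2% of all genes, these counts are not a result about the list. DESeq2 raised 4, and 3 were raised without TGFBRi rat 4. The casein CSN1S2B was at 0.917, 1.45 and 1.10 with vehicle and at 2.33 to 4.05 (median 3.80) after TGFBRi (1.55 ± 0.25, adjusted p = 0.00311). The osteopontin gene SPP1 was lowered (−2.89 ± 0.70, adjusted p = 0.0209). CSN2 (β-casein) varied more between rats than between groups, at 7.60, 61.4 and 0.829 with vehicle and at 4.75 to 241 (median 93.6) after TGFBRi (2.09 ± 1.37, adjusted p = 0.335). In cells thinned to 3000 UMIs, CSN2 was detected in 3.55 to 37.4% of members with vehicle and 11.6 to 66.1% after TGFBRi, against 0 to 3.85% and 0.572 to 8.57% of B cells. WAP, the whey acidic protein, was at 4.32, 5.89 and 2.28 and then at 2.25 to 46.7 (2.52 ± 1.05, adjusted p = 0.135). CSN3 (0.74, adjusted p = 0.331) and LALBA, the α-lactalbumin of lactose synthesis (0.58, adjusted p = 0.236), did not pass.

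**Figure D3:**
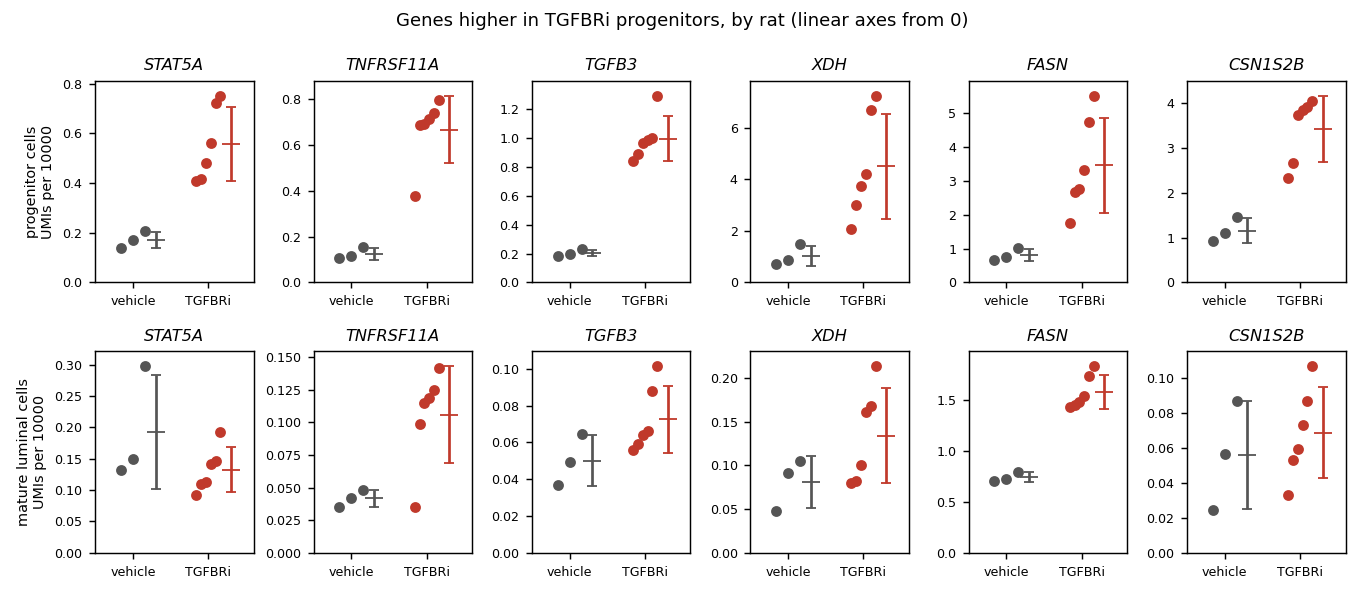
Levels (UMIs per 10000) of 6 raised genes in luminal progenitors (top) and mature luminal cells (bottom) of vehicle and TGFBRi rats (points, rats; bars, mean ± SD). In luminal progenitors every TGFBRi rat lies above the vehicle rats, as for STAT5A at 0.408 to 0.750 against 0.140 to 0.205.

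Growth factor and chemokine genes were lowered more often than raised. Of 12 genes of the EGF family 6 were lowered and 1 raised, against 12.2% of all genes lowered. The median was −1.12, and −0.54 without vehicle rat 1. The ligands NRG1 (−2.15 ± 0.26, adjusted p = 0.000856), EPGN (−2.06), BTC (−1.51) and TGFA (−1.13) were lowered without overlap of the groups. EREG (−3.15) and AREG (−2.56 ± 0.54, adjusted p = 0.0132), the estrogen-induced ligand of mature luminal cells, were lowered with overlap. The receptor ERBB2 was raised (0.59 ± 0.20, adjusted p = 0.0631). AREG was at 1.28, 0.369 and 0.745 in the members of vehicle rats, at 0.266, 0.235 and 0.0643 in their B cells and at 7.69 to 14.7 in their mature luminal cells. In B cells 4 of 9 measured EGF family genes were lowered, against 6.19% of all genes there.

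Of 21 genes of innate defence and chemokines 8 were lowered and 2 raised, against 12.2 and 12.9% of all genes. The median was −0.55, but −0.22 without vehicle rat 2 and −0.12 in counts thinned to the smallest rat total. CXCL1 was at 204, 157 and 144 with vehicle and at 81.2 to 141 (median 104.6) after TGFBRi (−0.69 ± 0.20, adjusted p = 0.0349). CXCL2 was at 156, 112 and 92.2 and then at 56.3 to 91.6 (median 72.1), a change of −0.76 ± 0.22 (adjusted p = 0.0326). Their groups were apart by less than the spread within the vehicle group. CXCL3, CXCL6, the monocyte chemokine CCL2 (−1.81), CXCL16 (−0.77), the macrophage factor CSF1 (−0.95, a call lost in 12 of 18 alternatives) and the NF-κB inhibitor TNFAIP3 (−1.18) were lowered, and CXCL17 (0.95) and the immunoglobulin transporter PIGR (1.61) raised. Without vehicle rat 1 the counts were 4 lowered and 0 raised. CCL2 was higher in B cells of vehicle rats than in the members, at a mean of 7.85 against 1.87, and 11 of 19 genes of this list were lowered in B cells, against 6.19% of all genes there. Of 20 interferon-stimulated genes 3 were raised, among them OAS1A (1.04 ± 0.30, adjusted p = 0.0317) and IFI44 (1.17 ± 0.37, adjusted p = 0.0497), and OASL (−1.26) and GBP2 (−1.93) were lowered. These 5 of 20 are close to the 25.1% of all genes that passed. None of the 6 measured MHC class II genes passed by edgeR, the lowest p being that of RT1-DB1 (0.45 ± 0.47, adjusted p = 0.558).

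Genes of cell adhesion were lowered more often than raised. Of 16 genes of epithelial junctions 10 were lowered, against 12.2% of all genes, and only CLDN8 was raised, with a median of −0.72. DSP, the desmosomal plaque protein desmoplakin, was at 0.719, 0.329 and 0.478 with vehicle and at 0.0605 to 0.158 (median 0.105) after TGFBRi (−2.21 ± 0.29, adjusted p = 0.00136). EPCAM was at 62.2, 41.6 and 55.6 and then at 20.1 to 32.8 (median 26.1), a change of −1.02 ± 0.24 (adjusted p = 0.0164). Neither gene overlapped between the groups. The gap junction protein GJA1 (−1.83), E-cadherin CDH1 (−0.81), CLDN7 (−0.86), TJP1 (−0.89), JUP (−0.65), OCLN (−0.69), CLDN3 (−0.51) and F11R (−0.75) were the other lowered genes. In B cells 7 of 15 of these genes were lowered (6.19% of all genes), although EPCAM was at only 0.142 to 0.329 there with vehicle. The count of lowered genes in the members was 4 without vehicle rat 1 and 6 without vehicle rat 4.

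Of 22 matrix and integrin genes 10 were lowered and 1 raised, with a median of −0.74, against 12.2 and 12.9% of all genes. TIMP1, an inhibitor of matrix metalloproteinases, was at 23.4, 26.2 and 17.9 with vehicle and at 5.35 to 13.3 after TGFBRi (−1.28 ± 0.28, adjusted p = 0.0108). ITGB6, the collagen receptor chain ITGA2 (−2.12), ITGB1 (−0.84), LAMC1 (−0.95), LAMA5 (−0.92), LAMB3 (−0.93), COL4A1 and COL4A2 (−0.73) were among the others lowered, and LAMB1 was raised (1.25 ± 0.33, adjusted p = 0.0239). The count of lowered genes was 5 without vehicle rat 1 and 6 under a stricter rule for the members. Of 4 luminal keratins KRT7 was lowered, at 1.30, 2.31 and 2.89 with vehicle and 0.142 to 0.409 (median 0.266) after TGFBRi (−3.07 ± 0.30, adjusted p = 0.000344). Of 11 basal epithelial genes 3 were lowered and 1 raised, against 12.2 and 12.9% of all genes. The counts were 2 and 5 without vehicle rat 1, so that no direction is read from this list. The lowered ones were KRT17 (−2.36 ± 0.19, adjusted p = 0.000133), SPARC (−1.12) and KRT14 (−0.62), whose call was lost in 6 of 18 alternatives, and OXTR, the oxytocin receptor, was raised. OXTR rested on few UMIs, at 0.00126 to 0.00605 with vehicle (4 UMIs over the rats) and 0.0101 to 0.0253 after TGFBRi. Of 11 genes of mature luminal cells 5 were lowered, against 12.2% of all genes, with a median of −1.11. Without vehicle rat 1, 3 of 9 were lowered (median −0.55), and 1 of 8 in counts thinned to the smallest rat total (median −0.65). The lowered genes included FOXA1 (−1.74 ± 0.30, adjusted p = 0.00410) and PGR (−2.14 ± 0.50, adjusted p = 0.0146). The pioneer factor FOXA1 and the progesterone receptor PGR were at 0.0290 to 0.0424 and 0.0176 to 0.0489 with vehicle. AREG and STC2 were the next, and CALCA was at 0 UMIs in all TGFBRi rats. The summed level of mature luminal markers given above includes FOXA1, PGR and AREG themselves, so that its fall is not a separate observation. Whether RNA of mature luminal cells had a part in these falls was not tested.

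**Figure D4:**
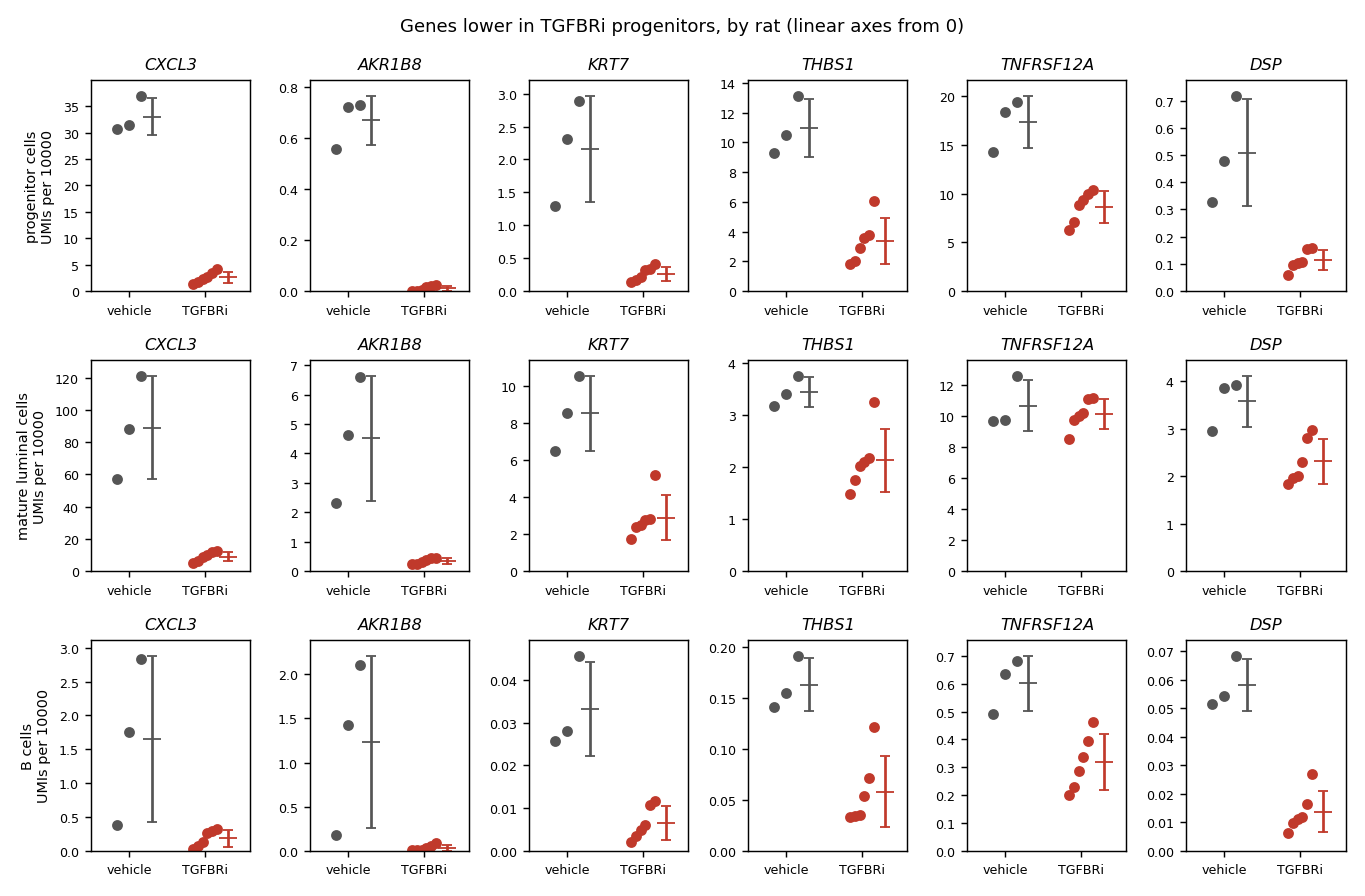
Levels (UMIs per 10000) of 6 lowered genes in luminal progenitors (top), mature luminal cells (middle) and B cells (bottom) of vehicle and TGFBRi rats (points, rats; bars, mean ± SD). CXCL3 lies at 30.8 to 37.0 in vehicle and 1.42 to 4.18 in TGFBRi luminal progenitors, and AKR1B8 of B cells reaches 2.10 in a vehicle rat.

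Cycling varied more between rats than between groups. Cells with at least 2 UMIs over 9 measured cycle genes were 6.50, 24.6 and 5.26% of members in the vehicle rats. In the TGFBRi rats they were 0.588, 1.61 and 1.51% in 3 rats (1, 2 and 14) and 19.8, 22.95 and 28.1% in the other 3 (4, 6 and 11). The means were 12.1 ± 10.8% (SD, n = 3) and 12.4 ± 12.5% (SD, n = 6, p = 1 in an exact permutation test, two-sided). Thinned to 3000 UMIs the shares were 2.73 to 10.8% and 0.168 to 18.6% (p = 0.798, exact permutation), against 1.31 to 5.12% in B cells. B cells may cycle themselves, so that their share is not a background for the members. In TGFBRi rats 1, 2 and 14 the members lay at 0.168 to 0.227%, below the 1.55 to 2.46% in B cells of the same rats. On the first axis of a multidimensional scaling of the members' summed counts TGFBRi rats 1, 2 and 14 lay at −1.48 to −1.11, apart from the other 3 TGFBRi rats and the vehicle rats at 0.194 to 1.20. Of 52 G2/M genes 4 were lowered and 0 raised, below the 12.2% of all genes lowered. Their median log2 fold change of 0.30 moved with single rats, at 1.04 without vehicle rat 2, −0.02 without vehicle rat 1 and −0.11 without TGFBRi rat 11. The 4 genes were TUBB4B (−0.99), JPT1 (−0.65), RANGAP1 (−0.68) and GAS2L3 (−1.99), which act on microtubules, the cytoskeleton or nuclear transport. Of 41 S phase genes the uracil glycosylase UNG was raised (1.51 ± 0.28, adjusted p = 0.00560) and the histone chaperone NASP lowered (−0.74). Of 12 genes of CDK inhibitors and G1, CCND3 (1.15 ± 0.27, adjusted p = 0.0140) and RB1 (1.29 ± 0.37, adjusted p = 0.0367) were raised and MYC was lowered (−0.68, adjusted p = 0.0863). These calls make up 4.88% of the S phase genes and 25% of the CDK inhibitor and G1 genes. Both shares lie near or below the 25.1% of all genes that passed and are not a result about the lists.

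Lists of genes that respond to handling, stress or hormones are read against the 25.1% of all genes that passed. The genes that passed were 3 of 18 immediate early genes, 3 of 11 heat shock genes, 3 of 20 of cholesterol synthesis, 2 of 13 of the IGF axis, 3 of 12 retinoid genes and 4 of 13 Notch genes. These shares lie near or below that of all genes and are not a result about the lists. Of 8 glucocorticoid-responsive genes 4 passed, but 0 were raised and 1 lowered without vehicle rat 1. Of 18 immediate early genes EGR2 was raised (1.46), and ATF3 (−0.96 ± 0.23, adjusted p = 0.0178) and KLF6 (−1.17 ± 0.24, adjusted p = 0.00886) were lowered. ATF3 was at 33.8, 25.3 and 41.004 with vehicle and at 10.9 to 20.4 after TGFBRi, a difference that moved with the treatment groups and whose part in other changes was not tested. Of 11 heat shock genes HSPA8 was raised (0.97), and HSPB1 (−2.08) and BAG3 (−0.57) were lowered. Of 8 glucocorticoid-responsive genes PER1 (0.88), ZBTB16 (2.83) and MT1 (1.92) were raised and SGK1 lowered (−1.30 ± 0.23, adjusted p = 0.00444). Of 20 genes of cholesterol synthesis DHCR7 (1.89) and EBP (0.54) were raised and 1 was lowered. In the Notch list of 13 genes NOTCH3 was raised (0.53), and JAG1 (−1.28), DLL1 (−1.57) and HEY2 (−2.13) were lowered, of which 0 were lowered without vehicle rat 1. Of 13 genes of the IGF axis the binding protein IGFBP5 was raised, at 15.0, 8.59 and 16.9 with vehicle and 18.2 to 52.5 (median 33.2) after TGFBRi (1.40 ± 0.38, adjusted p = 0.0294), and IGFBP7 was lowered (−1.17). Of 12 retinoid genes DHRS3 was raised and ALDH1A3 and RARG (−0.44) lowered.

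**Figure D5:**
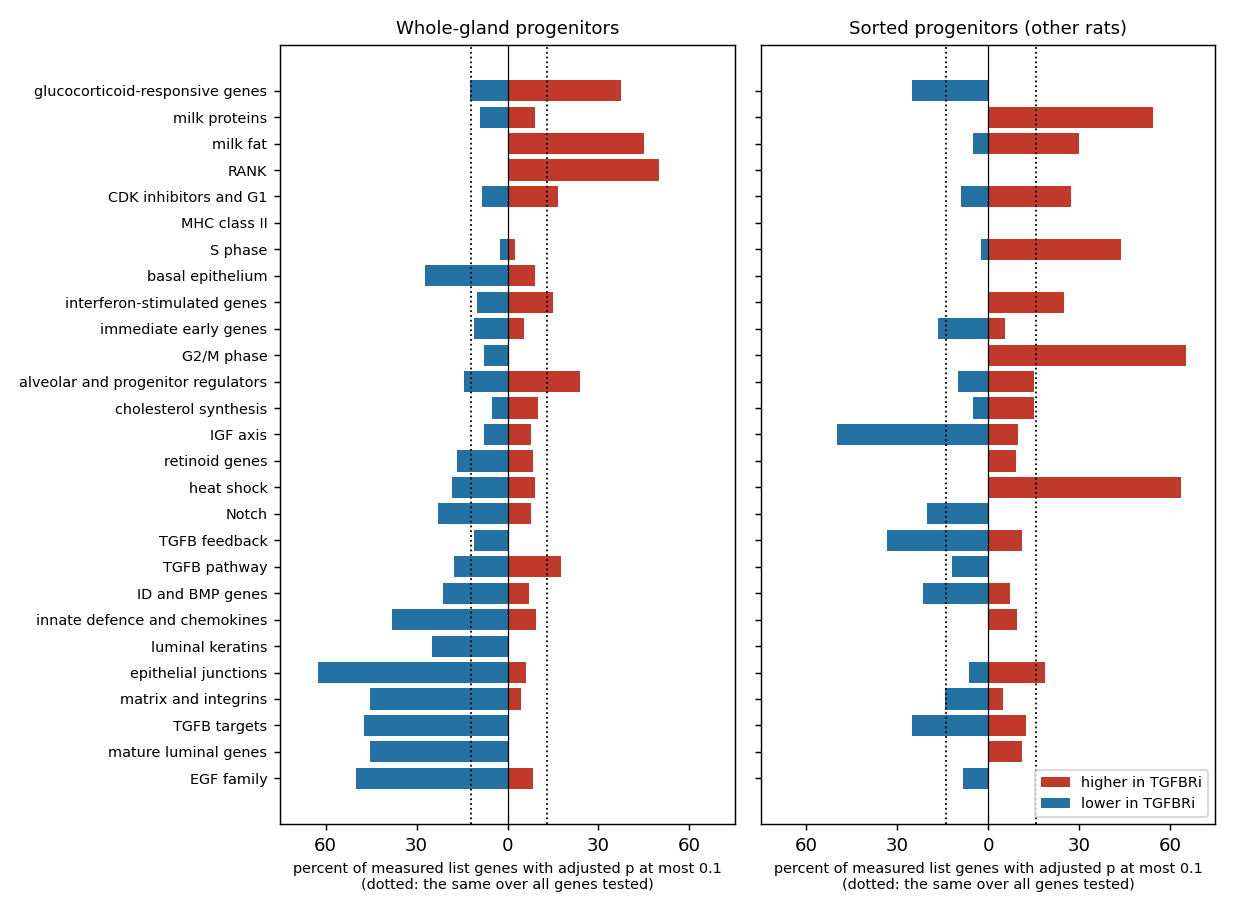
Percent of the measured genes of each list that were raised or lowered (adjusted p at most 0.1) in luminal progenitors of whole glands and in sorted luminal progenitors, with dotted lines at the percent over all genes tested. In whole glands 9 of 20 milk fat genes were raised and 9 of 19 TGFβ targets lowered, and in sorted cells 34 of 52 G2/M genes were raised, a count of 12 or 13 without TGFBRi rat 2 or 3 and at most 2 without any one vehicle rat.

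The effect of TGFBRi in the members was set against that in mature luminal cells of the same rats, with the rat as a block. Over 15100 genes the effects differed for 1656 (11%), more positive in luminal progenitors for 935 (6.19%) and more negative for 721 (4.77%). Leaving out vehicle rat 1, 2 or 4 gave 779, 958 and 760 genes. STAT5A differed by 2.27 ± 0.33 (adjusted p = 0.00242), at −0.66 (adjusted p = 0.126) in mature cells. STAT5B differed by 1.45 ± 0.25 (adjusted p = 0.00456) and TGFB3 by 1.69 ± 0.26 (adjusted p = 0.00225). ID2 differed by 2.46 ± 0.26 (adjusted p = 0.000128), since it was raised in the members and lowered in mature cells (−1.63 ± 0.30, adjusted p = 0.00262). In mature cells 5 of 19 TGFβ targets, 6 of 12 EGF family genes, 14 of 19 innate defence and chemokine genes, 12 of 16 junction genes and 10 of 22 matrix and integrin genes were also lowered, against 14.7% of all genes there. Of the 21 alveolar and progenitor regulators 9 were lowered and 1 raised in mature cells, with a median of −0.72 there against 0.10 in the members. Over all genes in mature cells 14.7% were lowered and 12.6% raised. The effect on these regulators was more positive in the members for 10 and more negative for 0, against 6.19 and 4.77% of all genes.

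Milk fat genes were also raised in mature luminal cells, 9 of 20 with 3 lowered and a median of 0.74. Over all genes there 12.6% were raised and 14.7% lowered. Of 11 milk protein genes the effect was more positive in the members for 4 and more negative for 0, and of 20 milk fat genes for 5 and 1. Over all genes the effect was more positive for 6.19% and more negative for 4.77%, here and in the counts of such differences that follow. CSN2, which did not pass in the members alone, differed by 2.64 ± 0.37 (adjusted p = 0.00456), XDH by 1.44 ± 0.30 (adjusted p = 0.0143) and WAP by 2.03 ± 0.42 (adjusted p = 0.0240). Of 21 innate defence and chemokine genes 7 were lowered less or raised more in the members and 0 the reverse. CXCL2 differed by 1.72 ± 0.23 (adjusted p = 0.00137), with a log2 fold change of −2.46 in mature cells. For CXCL3 the effects did not differ beyond their error (−0.40 ± 0.36, adjusted p = 0.592). AREG differed the other way (−2.86 ± 0.35, adjusted p = 0.00174), with 0.24 in mature cells. So did KRT7 (−1.42 ± 0.28, adjusted p = 0.0133). Of 20 genes of cholesterol synthesis 15 were raised in mature cells (12.6% of all genes tested there, and 27.3% called in either direction), with a median of 0.88, and 2 in the members, and the effects differed for 9.

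The same rule was applied to sorted luminal cells (CD24+CD29low) of other SD rats of the study, 3 vehicle and 6 TGFBRi, dosed alike and read by another chemistry. It found 9786 of 23784 cells. Over 13109 genes 3893 passed (29.7%), 2064 raised (15.7%) and 1829 lowered (14%). This count rested on each vehicle rat, with 2, 489 and 61 genes when vehicle rat 1, 2 or 3 was left out. Of 12682 genes tested in both, 952 passed in both, which is 28.1% of those that passed in whole glands and 24.7% of those in sorted cells. Of these 952, 47.4% had the same sign, against 53.7% of all 12682 genes. Of the 24 genes with the largest changes, 22 were tested in sorted cells and 9 had the same sign. Of these 22 genes 3 passed in sorted cells, against 29.7% of all genes there. All 3 had the opposite sign, so that 0 passed with the same sign.

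Single genes went either way. TGFB3 (−0.26, adjusted p = 0.512), TNFRSF11A (−0.43, adjusted p = 0.232) and STAT5A (0.20, adjusted p = 0.629) did not pass in sorted cells. CCN2 (−1.86 ± 0.49, adjusted p = 0.0372), CCN1 (−0.72, adjusted p = 0.0873) and LTBP2 (−2.36 ± 0.53, adjusted p = 0.0288) were lowered there too, and THBS1 narrowly missed the threshold (−1.67 ± 0.68, adjusted p = 0.1004). Of 16 TGFβ targets tested in sorted cells 4 were lowered and 2 raised, with a median of −0.21, against 14 and 15.7% of all genes. FASN was raised in both data sets (0.78 ± 0.18, adjusted p = 0.0290, in sorted cells). NFIB (−1.21 ± 0.27, adjusted p = 0.0288) and IGFBP5 (−1.22 ± 0.33, adjusted p = 0.0372) were lowered in sorted cells and raised in whole glands. The feedback genes SMAD7 (−1.22 ± 0.31, adjusted p = 0.0346) and SKIL (−1.53 ± 0.32, adjusted p = 0.0274) were lowered in sorted cells. SKIL did not pass in whole glands (−0.20, adjusted p = 0.573), and no test compared the effects between the data sets.

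Lists differed as well. Of 16 junction genes 1 was lowered and 3 raised in sorted cells, of 21 innate defence and chemokine genes 0 and 2. Of 12 EGF family genes 1 was lowered and 0 raised, of 21 matrix and integrin genes 3 and 1, and of 20 milk fat genes 1 and 6. Over all genes 14% were lowered and 15.7% raised there. In sorted cells 6 of 11 milk protein genes were raised, against 15.7% of all genes, with a median of 2.22, among them WAP (2.64 ± 0.34, adjusted p = 0.00778) and CSN3 (1.752 ± 0.26, adjusted p = 0.0148). G2/M genes were raised for 34 of 52, with a median of 2.40, S phase genes for 18 of 41 and heat shock genes for 7 of 11. These counts rested on single rats. Cycling cells were 39.7 and 31.2% of members in TGFBRi rats 2 and 3, 1.27 to 6.72% in the other 4 and 0.923 to 0.987% with vehicle. The count of G2/M genes raised was 12 without TGFBRi rat 2, 13 without TGFBRi rat 3, and 0, 2 and 0 without vehicle rat 1, 2 or 3. S phase genes raised were 5 and 6 without those TGFBRi rats and 0 without any one of the vehicle rats. Heat shock genes raised were 0, 2 and 0 and milk protein genes 0, 4 and 2 without vehicle rat 1, 2 or 3. The share of members among classed luminal cells, a comparison added after seeing the data, was 74.3 ± 7.74% with vehicle (SD, n = 3) and 52.98 ± 14.2% after TGFBRi (SD, n = 6). The difference of −21.3 points (p = 0.0595, exact permutation, two-sided) ran against the 14.8 points of whole glands. The sort, the chemistry, the filters and the animals differed between the data sets and cannot be told apart.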

How the data were processed

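Whole mammary glands of 9 SD rats were read by single-cell RNA-seq. The authors aligned reads to rn6 with Cell Ranger 7.0.0 (sorted luminal cells 4.0.0) and filtered cells on genes and mitochondrial reads with Seurat 4.1.1 (4.0.0). The deposited values are UMI counts per gene and cell, not normalized, and keep no named mitochondrial genes. The sorted tables had also been filtered by the authors on PTPRC and keratins, the whole-gland tables had not.

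Members were found by the rule given above, and other classes likewise. Mature luminal cells had at least 3 keratin UMIs, at least 2 over CITED1 and PRLR and at most 1 over PTPRC, KIT, ELF5 and BTN1A1. B cells had at least 2 UMIs over CD79B and MS4A1 and none over keratins. Counts were summed per rat and compared by edgeR 4.0.16 (R 4.3.3, TMM, quasi-likelihood) over genes with at least 10 UMIs, since rats and not cells are the replicates. The SE is the log2 fold change divided by the root of F. The rule's own genes were left out of calls. Shares were compared by exact permutation over rats. DESeq2 1.42.0, RLE scaling, other filters, a stricter rule, thinned counts and omitted rats were alternatives. Scrublet (scanpy 1.11.5, Python 3.11.15) marked 0 to 3.42% of cells per library and most libraries under 0.5%, so that it had not worked. Doublets were kept, and omitting the top 6% of its scores was an alternative.

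Genes named were the 12 per direction with the largest fold change among those that passed, had a mean of at least 20 UMIs per rat and did not overlap between groups. List genes that passed, the lowest p of a list without one, and the rule's genes were added. The members and the 27 lists were chosen with earlier results of these data known, and 16 clock genes were added after their values were seen. Other genes without a call are given as values, also chosen after their values were seen. Each sample was 1 rat, and luminal progenitors, mature luminal cells and B cells came from the same 9 rats. On simulated counts for 13898 genes the test of the members recovered 38% of genes changed 2-fold and 93% of those changed 4-fold, with 5.76% false calls. For 12908 genes of sorted cells it recovered 26 and 88%, with 8.06% false calls. For 14882 genes of the comparison with mature cells it recovered 48 and 91%, with 13.1% false calls, above the 10% that the threshold sets. In each simulation 100 genes were changed per fold size, all with a mean of at least 20 UMIs. Counts were drawn independently, without differences shared by the genes of a rat. These rates were thus not measured for scarcer genes or for such shared differences. Some list genes that passed are counted but not reported here by name.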

Additional observations from a re-analysis of the deposited data

Results flagged for a closer look

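The effect of TGFBRi differed between luminal progenitors and mature luminal cells for 9 of the 24 genes with the largest changes, against 11% of all genes. The test was edgeR's interaction test with Benjamini-Hochberg adjustment. The 24 genes were picked for their large change in luminal progenitors, which favours a larger change there, so that this count is a description. All 12 raised and all 12 lowered genes had the same sign in mature luminal cells, where 6 and 10 of them passed. Over all genes there 12.6% were raised and 14.7% lowered. The difference of log2 fold changes, progenitor minus mature, was 2.58 for DBP (adjusted p = 0.0733), 2.40 for FAM13A (adjusted p = 0.00217), 2.96 for RBM20 (adjusted p = 0.00213) and 1.83 for LOC102551095 (adjusted p = 0.0212). It was 1.14 for TNFRSF11A (adjusted p = 0.0117) and 1.69 for TGFB3 (adjusted p = 0.00225). Among lowered genes it was −2.28 for AKR1B8 (adjusted p = 0.0349), whose level in luminal progenitors of vehicle rats 1 and 2 is read as background, −1.55 for FHL2 (adjusted p = 0.0366) and −1.81 for SERPINB9 (adjusted p = 0.00931).

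A single rat lay far from the other 5 of the TGFBRi group in 3 of 28 sets of values, by Dixon's gap criterion, which chance meets in about 1 in 20 sets. TNFRSF11A was lowest in TGFBRi rat 4, at 0.379 UMIs per 10000, still above the vehicle rats. TGFB3 was highest in TGFBRi rat 1 at 1.29, as was CXCL6 at 0.253.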

How the results depend on the processing

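The count of genes changed in luminal progenitors (3555) moved to 1665 without vehicle rat 1, to 2361 with counts thinned to the smallest rat total and to 1461 with a replicate block. Leaving out each rat gave 1665 to 3600, and DESeq2 gave 3695. Same-numbered rats did not all deviate together (correlations 0.334, −0.396 and −0.0757), and the numbers were not taken to pair the rats. With so few such pairs this check cannot exclude a pairing. Other pairs correlated more strongly, such as vehicle rat 2 with TGFBRi rats 11 (0.558), 6 (0.506) and 1 (−0.544). In sorted luminal progenitors the count (3893) was 1797 at an adjusted p of 0.05, and leaving out each rat gave 2 to 4895, with 2, 489 and 61 without vehicle rat 1, 2 or 3 and 2577 without TGFBRi rat 4. For the difference from mature luminal cells leaving out each rat gave 760 to 1711 genes. The share of all cells differed by 4.70 points in thinned cells (p = 0.0119) and, leaving out each rat, by 1.03 to 3.98 points, the latter without vehicle rat 1 (p = 0.0357, exact permutation). The share of classed luminal cells differed by 3.48 to 20.6 points. The cycling difference of 0.298 points changed sign under the stricter rule (−0.544) and without vehicle rat 1 (−2.51) or 4 (−3.13) or TGFBRi rat 4 (−1.18), 6 (−1.81) or 11 (−2.83), and leaving out each rat gave −3.13 to 6.54. The sorted share differed by −27.9 points under the stricter rule (p = 0.0476), −35.2 in thinned cells (p = 0.0357) and, leaving out each rat, by −25.0 (without TGFBRi rat 6, p = 0.0357, exact permutation) to −17.0. With the replicate block TGFBRi rats 6, 11 and 14, which share no number with a vehicle rat, gave nothing to the estimated effect. For all but that block, the left-out rats and the thinned counts, where fewer samples or UMIs bear on the result, the cause was not tested. Of 139 named genes none changed sign under an alternative that tested it, and STC2 was tested in only 14, CALCA in 15 and HEY2 in 16 of 18. The call was lost for 53 without vehicle rat 1, 27 without vehicle rat 4 and 50 with the block, among them CXCL6, IL1RL1, FAM19A5 and RPUSD3. Calls were lost often for ACSS2, CSF1 and RARG (12 of 18 alternatives), LAMB3 (11), COL4A2 (10), MYC, CLDN3 and BAG3 (9) and OASL (8), and NOG ranged from −5.27 to −0.64. No list's median changed sign under RLE or DESeq2. Under other alternatives some did. In whole glands the median of G2/M genes (0.30) was −1.19 with the block, −0.11 and −0.01 without TGFBRi rat 11 or 6 and −0.02 without vehicle rat 1, and that of S phase genes (0.37) was −0.11 with the block. Alveolar and progenitor regulators (0.10) reached −0.06 without TGFBRi rat 6 and were also below 0 without TGFBRi rat 11 or 14 or vehicle rat 1. Basal epithelial genes (0.32) reached 1.13 without vehicle rat 1, −0.14 without members over 1 basal keratin UMI and −0.08 without vehicle rat 4. The medians of Notch, heat shock, retinoid, IGF and cholesterol genes, at −0.14 to 0.08, also changed sign under at least 1 alternative. In sorted cells the G2/M count (34) was 11 at an adjusted p of 0.05 and 14 with no filter on low counts.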

Other observations

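Genes of the circadian clock were looked at after DBP was seen to have the largest rise, so that their changes are a description chosen on these values. Of 16 clock genes 7 were raised and 2 lowered in luminal progenitors by edgeR with Benjamini-Hochberg adjustment, against 25.1% of all genes called. The period genes PER2 (1.40 ± 0.27, adjusted p = 0.00614) and PER3 (1.35 ± 0.22, adjusted p = 0.00342) and the DBP relatives HLF (1.81 ± 0.53, adjusted p = 0.0367) and TEF (0.84 ± 0.18, adjusted p = 0.00929) were raised. ARNTL, which encodes the activator BMAL1, was lowered (−1.56 ± 0.31, adjusted p = 0.00707). In mature luminal cells 7 of the 16 were raised and 1 lowered, against 12.6 and 14.7% of all genes. In B cells 1 of 15 was raised, near the 6.41% of all genes. In sorted luminal progenitors 0 were raised and 4 lowered, against 15.7 and 14%. The labels give no hour of collection.

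CSN2 RNA was carried by few cells in vehicle rat 1. It was detected in 9.10% of luminal progenitors, and the largest cell held 1073 of its 10414 UMIs, with a median of 0. CSN3 of the same rat was detected in 71.4%.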
